A study of Arabidopsis thaliana with 12 samples.

Results

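Mature and young Arabidopsis thaliana hypocotyls were compared after 1 day of auxin, on the 6 of 12 arrays of the series that carried auxin-treated tissue. The mature group was 35 days old and the young group 7 days old, with 3 arrays in each, described in the labels as biological replicates. All plants were of ecotype Col-0 and had grown on full-strength MS, a mineral medium for plants. The same 2 ages without auxin, again 3 arrays each, served to ask whether an age difference was particular to the treated tissue. Neither the auxin nor its dose is named in the labels, and whether untreated tissue waited the same day is not given. All 22746 of the 22810 probe sets that are not array controls were tested.

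The hypocotyl is the stem between root and cotyledons. It first lengthens by cell expansion and later thickens through a cambium, which adds xylem, phloem and a protective periderm. Auxin binds receptors that mark the AUX/IAA repressors for destruction, which frees auxin response factors to switch on their targets. Among these targets are GH3 enzymes, which inactivate auxin, and LBD transcription factors, which start lateral roots and callus, the mass of dividing cells that auxin induces from pericycle-like cells. The series concerns the change of callus-forming capacity with age, and the comparison here asks how the 2 ages differ once both have met auxin.

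Values are log2 expression values, each probe set set to 0 at its median over the 12 arrays. They show differences between arrays but not how strongly a gene was expressed. A difference is mature minus young, given with the standard error (SE) of the limma fit, so that 1 on this scale is 2-fold. A probe set is called at a limma adjusted p under 0.05 over all 22746, and a gene with several probe sets only if all of them are called the same way. In whole tissue, a change in the share of a cell type and a change of RNA within its cells cannot be told apart.

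Of the 22746 probe sets, 6206 (27.3%) were called between the ages with auxin, 3239 (14.2%) higher and 2967 (13.0%) lower in mature hypocotyls. A difference of 2-fold or more was called for 740 higher (3.25%) and 847 lower (3.72%) probe sets, and one of 8-fold or more for 53 higher and 111 lower. The 3 mature arrays did not overlap the 3 young ones in 9255 probe sets (40.7%). Over the 13356 genes that have a probe set of their own, 1657 (12.4%) were higher and 1573 (11.8%) lower. These shares are the background against which the gene lists are read. The lists were chosen with earlier results of these data known, so an excess over these shares is a description and not a test.

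On the 6 auxin arrays the bioC spike-in, a bacterial transcript, lay between −0.20 and 0.20. None of the 64 control probe sets was called by limma between the 2 auxin groups (1 had an unadjusted p under 0.05). That fit pools the spread of all 4 groups, and the SE of the bioC probe sets was 0.54 to 0.59. The absence of a call therefore does not show that the 6 arrays were alike. The 25S ribosomal RNA control lay at 1.77 to 2.5 in young and at 1.06 to 1.35 in mature arrays, a difference of −1.05 ± 0.38 (limma adjusted p = 0.0555). Its part in the results was not tested. The untreated arrays were less even. Their bioC lay between −1.61 and −1.43 on replicates 1 and 2 of both ages and at 0.70 and 0.48 on replicate 3. Their 25S control lay between −2.56 and −1.06, below all auxin arrays. The 3' minus 5' difference of a GAPDH control was 0.33 to 0.51 in young and 0.13 to 0.21 in mature untreated arrays. With auxin it was −0.18 to 0.03. Another GAPDH pair overlapped, at −0.27 to 0.13 without and −0.08 to 0.11 with auxin. The part of these shifts in the comparisons with and without auxin was not tested. Pearson's r across probe sets was 0.931 to 0.954 among young and 0.910 to 0.956 among mature auxin arrays, against 0.408 to 0.558 between them. Of 72 genes known to mark hypocotyl or neighbouring tissues, 5 had a probe set of their own, so the tissue makeup could be read only from these. The cambium receptor MOL1 (−0.12), the mesophyll genes LHCB4.2 (−0.19) and PRK (−0.04) and the shoot meristem peptide CLV3 (0.09) were not called between the auxin groups, and the periderm gene FACT was higher in mature arrays by 3.83.

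Of 4 measured regulators of callus or embryo formation, none passed the test between the ages in the fit without a replicate block, and PUCHI passed with it. LBD16, a transcription factor of lateral root initiation, lay at 1.99, 2.16 and 2.28 on the young and at 2.04, 2.04 and 2.07 on the mature auxin arrays. The ranges overlapped, and the difference was −0.09 ± 0.11 (limma adjusted p = 0.62), with a 95% interval from −0.33 to 0.14. The related LBD29 read 3.23, 3.04 and 3.20 in young and 3.53, 3.51 and 3.16 in mature arrays, a difference of 0.25 ± 0.12 (limma adjusted p = 0.154, 95% interval −0.01 to 0.50). At both ages the untreated arrays lay far lower, from −2.58 to −1.99 for LBD16 and from −3.39 to −3.04 for LBD29.

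PUCHI, an AP2-type transcription factor of lateral root primordia, lay at 2.25, 2.05 and 2.60 in young and at 2.59, 2.70 and 3.90 in mature auxin arrays. The highest young array stood just above the lowest mature one, and the difference was 0.76 ± 0.27 (limma adjusted p = 0.0527, 95% interval 0.18 to 1.35). The same-numbered arrays, which correlated as pairs, differed by the same sign in all 3 pairs, and the gene was called when the replicate number was taken as a block (limma adjusted p = 0.0238 over 12 arrays and 0.0184 over 6). It was also called after quantile normalization (0.0217) and without young array 3 or mature arrays 1 or 2. Without mature array 3, the highest, the difference was 0.35 (adjusted p = 0.169). BBM (BABY BOOM), a regulator of embryo formation, differed by 0.04 ± 0.11 (limma adjusted p = 0.846), its 12 arrays lying between −0.26 and 0.18. In the limma fit of 12 arrays without a block and on the deposited values, none of the 4 was called and 1, PUCHI, had an unadjusted p under 0.05. LBD29 was called by limma without mature array 3 (adjusted p = 0.0301) and after quantile normalization (0.019).

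**Figure D1:**
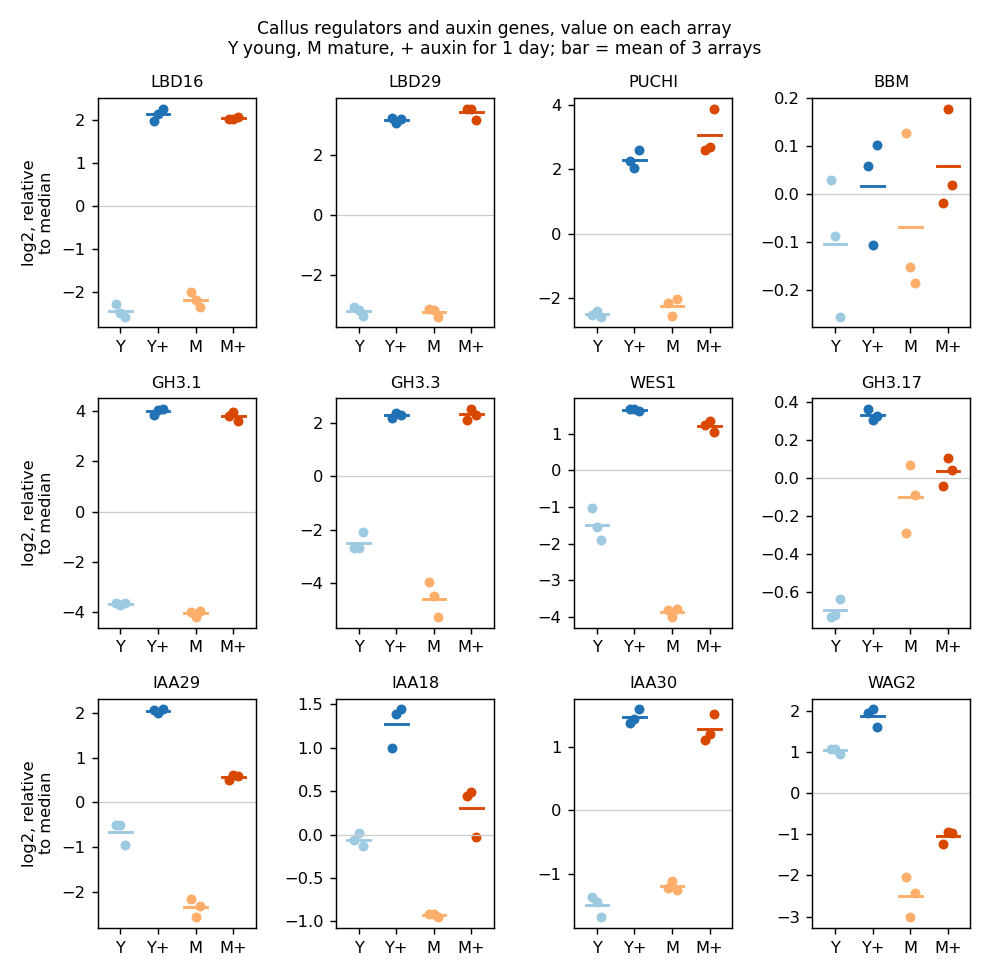
Value of 12 genes on each of the 12 arrays (y axis, log2 relative to the gene's median over the arrays; x axis, the 4 groups, Y young, M mature, + auxin; points are arrays and bars group means). LBD16, LBD29, GH3.1 and GH3.3 stand at like heights in both auxin groups, with differences of −0.09, 0.25, −0.21 and 0.03, whereas IAA29, IAA18 and WAG2 are lower in mature arrays.

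Of 7 measured genes that inactivate auxin, 5 did not pass the test between the treated groups, and some of these differed by age without auxin. GH3.3, an enzyme that joins auxin to amino acids, lay at 2.18, 2.36 and 2.28 in young and at 2.09, 2.51 and 2.30 in mature auxin arrays (0.03 ± 0.25, limma adjusted p = 0.96, 95% interval −0.52 to 0.58). Without auxin it was lower in mature hypocotyls by 2.09 on the log2 scale, or 4.25-fold, and the age difference itself differed between the treatments (2.11 ± 0.36, limma adjusted p = 0.00042). For WES1 (GH3.5), which conjugates auxin and salicylate, the young auxin arrays read 1.68, 1.68 and 1.63 and the mature ones 1.24, 1.35 and 1.04. These groups did not overlap, but the difference of −0.45 ± 0.16 missed the threshold (limma adjusted p = 0.0554); with the replicate block it was called (limma adjusted p = 0.0423 over 12 arrays and 0.00746 over 6). It was also called with the 6 auxin arrays alone (0.0068), with array medians set equal (0.0434) and without untreated young array 1 (0.0069) or 3 (0.0167). Without auxin WES1 was 5.20-fold lower in mature hypocotyls.

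GH3.1 differed by −0.21 ± 0.10 (limma adjusted p = 0.186), GH3.9 by −0.09 and the auxin glucosyltransferase UGT84B1 by 0.02, none of them called. Of the 7 measured genes of auxin conjugation, 2 were lower and none higher with auxin, with a median of −0.21 against 0.02 over all genes. The 2 were UGT74D1, another auxin glucosyltransferase (−0.91 ± 0.13, limma adjusted p = 0.00012), and GH3.17 (−0.30 ± 0.09, limma adjusted p = 0.0259), which also acts on auxin. GH3.17 was not called in 5 of the fits that left out 1 array, those without young array 1, 2 or 3 or mature array 1 or 3 (adjusted p = 0.055 to 0.0927).

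The AUX/IAA repressors split. IAA29 lay at 2.06, 1.99 and 2.09 in young and at 0.50, 0.61 and 0.59 in mature auxin arrays, 2.79-fold lower with no overlap (−1.48 ± 0.13, limma adjusted p = 8.9e-07). IAA18 was lower by 0.97 ± 0.14 (log2, limma adjusted p = 9.6e-05). Both IAA29 and IAA18 were also called lower in mature hypocotyls without auxin. The other 5 measured, IAA20, IAA30, IAA31, IAA33 and IAA34, had differences between −0.20 and 0.24 and were not called. WAG2, a protein kinase that phosphorylates PIN auxin carriers, had young values of 1.94, 2.04 and 1.6 and mature values of −1.23, −0.95 and −0.97, which makes it 7.51-fold lower in mature auxin arrays (−2.91 ± 0.19, limma adjusted p = 7.1e-08). Without auxin WAG2 was called lower in mature hypocotyls too (−3.52), and the difference between the comparisons was not called. None of 4 measured genes of auxin synthesis and 6 of cytokinin response was called by limma with auxin. Of these genes, 0 had an unadjusted p under 0.05.

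Most measured genes of mitosis were higher in mature than in young hypocotyls with auxin, and most were lower without it. Of the 12 measured genes of mitosis, 9 were higher and 1 lower with auxin (75% and 8.33%, against 12.4% and 11.8% of all genes). Their median difference was 0.68 against 0.02 over all genes. Without auxin 1 was higher and 10 were lower, with a median of −0.75, against 20.0% of all genes higher and 21.0% lower. Of the 12, 8 were called in opposite directions in this way, which 1.91% of all genes were, and the difference between the 2 age comparisons was called above 0 for 10 (15.6% of all genes). Since the list was chosen with earlier results of these data known, its excess over all genes is no independent support.

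AUR2, an Aurora kinase that acts on chromosomes and the spindle, lay at 0.15, 0.02 and 0.22 in young and at 0.80, 0.77 and 1.01 in mature auxin arrays. The mature arrays all stood above the young ones, by 1.66-fold (0.73 ± 0.11, limma adjusted p = 0.00019). Without auxin the young arrays read −0.38, −0.02 and −0.25 and the mature arrays −1.65, −1.36 and −1.49. The order of the ages thus turned, with a difference between the comparisons of 2.02 ± 0.16 (limma adjusted p = 6.6e-07). KINESIN-12B, a motor of the phragmoplast that lays down the new cell wall, lay at 0.07, 0.11 and 0.48 in young and at 0.90, 0.89 and 1.55 in mature auxin arrays (0.89 ± 0.16, 1.86-fold, limma adjusted p = 0.00064). 3xHMG-box2, a chromosomal protein of dividing cells, was 1.68-fold higher (0.75 ± 0.13).

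The related AUR1 and AUR3, named here after their values were seen, were higher by 0.71 and 0.66 with auxin and lower by 1.21 and 1.01 without it (log2). BUB3.1 and BUB3.2, named likewise and part of the checkpoint that watches spindle attachment, were higher by 0.70 and 0.46 with auxin. The checkpoint kinase BUBR1 (0.19) and TSO1 (0.02), also named after their values were seen, were not called. ATMAP65-6, a microtubule bundling protein, was the 1 called lower (−0.36 ± 0.10, limma adjusted p = 0.0143), and it lost its call without young array 1 (adjusted p = 0.0707) or 2 (0.0533). The count of 9 lay between 8 and 9 in every alternative at the same threshold.

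Other lists of the cell cycle had fewer calls. Of 5 core histone genes 2 were higher with auxin, HTR12, the centromeric histone (0.64 ± 0.15, limma adjusted p = 0.00431), and HTB2, a histone H2B (0.52 ± 0.12). HTR12 was also counted in the mitosis list. Of 24 meiosis and DNA repair genes 3 were higher and none lower, a share of 12.5% against 12.4% of all genes; among them were topoisomerase II (TOPII, 0.57 ± 0.12) and RECQ4A, a DNA helicase of repair (0.45 ± 0.08). None of 5 measured DNA replication genes was called by limma with auxin (2 had an unadjusted p under 0.05), their differences lying between 0.02 and 0.30; 3 were lower without auxin, and for these 3 the difference between the comparisons was called. They were ICU2, a catalytic subunit of a replicative DNA polymerase, POLA3, a primase subunit, and PRL (MCM7), part of the replicative helicase, named after their values were seen, at −0.65, −0.94 and −1.22 without auxin. Of 4 measured genes of the cyclin and cyclin-dependent kinase list none was higher and 1 was lower. This was SIM, an inhibitor of cyclin-dependent kinases that favours endoreduplication, lower with auxin (−0.78 ± 0.11, limma adjusted p = 6.2e-05) and without it (−0.54).

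The untreated arrays with low bioC signal bear on these contrasts. Leaving them out keeps the shift of the 25S control, at −1.06 on replicate 3 of both untreated ages. Without those 4 arrays, which leaves 1 untreated array per age, assumed to vary like the auxin groups, 4 mitosis genes were lower without auxin rather than 10, and 3 rather than 8 were called in opposite directions. The difference between the comparisons was called above 0 for 9 genes of that list.

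Genes of photosynthesis in the nucleus did not show with auxin the fall with age that they showed without it. Over all genes, 12.4% were higher with auxin, 21.0% were lower without it, and 15.6% had a difference between the comparisons called above 0. Of 12 measured photosynthesis genes, 2 were higher (16.7%) and none lower with auxin (median 0.20), whereas 11 were lower without auxin (median −1.39). The difference between the comparisons was called above 0 for 11, with or without the 4 low-bioC arrays. PSBY, a small subunit of photosystem II, lay at −2.38, −2.64 and −2.75 in young and at −1.48, −1.66 and −1.33 in mature auxin arrays, 2.14-fold higher in mature (1.1 ± 0.14, limma adjusted p = 5.0e-05). Without auxin it read 3.19, 3.2 and 2.97 in young and 1.61, 1.33 and 1.91 in mature arrays, far above all auxin arrays and 2.81-fold lower in mature ones.

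LHCB4.1, an antenna protein, was 1.33-fold higher with auxin (0.41 ± 0.12, limma adjusted p = 0.0202), a call lost without young array 2 (adjusted p = 0.0868), young array 3 (0.0829) or mature array 1 (0.0645). Among 10 genes of chlorophyll and carotenoid synthesis 3 were higher (30%) and 1 lower (10%) with auxin. Without it 8 were lower, against 21.0% of all genes. CHLM, the methyltransferase of magnesium protoporphyrin, read −2.17, −2.17 and −2.24 in young and −1.84, −1.59 and −1.56 in mature auxin arrays (0.53 ± 0.13, limma adjusted p = 0.00615), against −1.49 without auxin. HEME2, a uroporphyrinogen decarboxylase (0.47 ± 0.11), and HEMA2, a glutamyl-tRNA reductase (0.40 ± 0.07), were higher too. Of the 10, 9 had a called difference between the comparisons, and 5 without the low-bioC arrays.

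Genes encoded in the plastid tended lower in mature hypocotyls both with and without auxin. Of 69 measured, none was higher and 15 (21.7%) were lower with auxin, with a median of −0.25. Without auxin 1 was higher and 27 were lower, with a median of −0.47. The difference between the comparisons was called above 0 for 5 and below 0 for none, against 15.6% and 15.2% of all genes. psbA, the D1 protein of photosystem II, lay at −0.30, 0.00 and 0.00 in young and at −0.92, −1.1 and −1.56 in mature auxin arrays (−1.1 ± 0.23, limma adjusted p = 0.00245), and psaJ, a subunit of photosystem I, differed by −0.81 ± 0.17. The count of 15 lower with auxin depends on single arrays: it was 7 without young array 2, 9 without young array 3 and 7 without mature array 1. It was 23 with the 6 auxin arrays alone, 22 with the replicate block on 12 arrays and 30 with the block on those 6, where 1 and 2 genes were also called higher. The 25S control moved in the same direction, and its part in the result was not tested. Of 16 mitochondrial genes 4 were higher, among them nad9 (0.77 ± 0.12) and cox1 (0.47 ± 0.08), and 2 in 4 of the fits that left out 1 auxin array (young 1 or 2, mature 1 or 2).

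**Figure D2:**
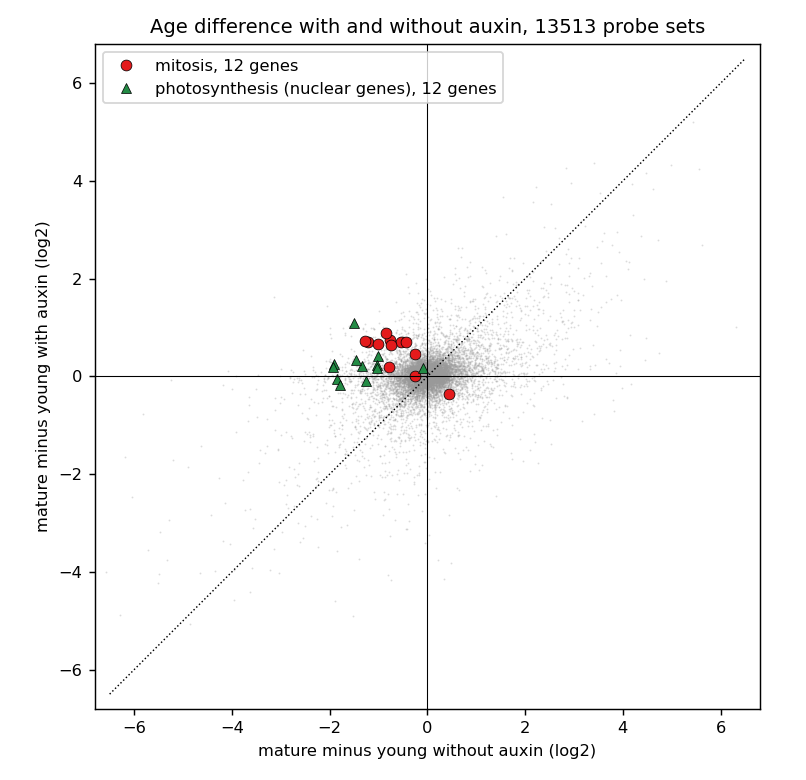
Mature minus young difference with auxin (y axis, log2) against that without auxin (x axis, log2) for the 13513 probe sets with 1 gene (grey points). The dotted line marks equality. Of the 12 mitosis genes (circles, mean of a gene's probe sets) 11 lie above the horizontal line, while 11 lie left of the vertical line. The 12 photosynthesis genes (triangles) lie between −0.19 and 1.1 on the y axis.

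Genes of the growing cell wall differed strongly, mostly downward. XTH19, which cuts and rejoins xyloglucan chains, lay at 4.5, 4.22 and 3.91 in young and at −0.11, 0.13 and 0.11 in mature auxin arrays. It was 17.97-fold lower in mature hypocotyls (−4.17 ± 0.29, limma adjusted p = 9.6e-08), against −0.74 without auxin. Of 10 measured XTH genes, 5 were lower and 1 higher with auxin (50% and 10%). XTH32 (−2.17 ± 0.17) and XTH33 (−1.5 ± 0.19) were lower and XTH29 higher (0.51 ± 0.10). XTH33 was higher in mature hypocotyls without auxin (0.72), a call lost without the low-bioC arrays (0.37).

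Expansins, which loosen walls without cutting them, went both ways, with 4 higher and 5 lower of 19. EXPA8 differed by −2.46 ± 0.21 with auxin and by −6.05 without it, a difference between the comparisons of 3.59 ± 0.29. EXPA9 (−1.94 ± 0.10) and EXLB1 (−1.25 ± 0.16) were lower too. EXPA15 lay at 0.09, −0.15 and 0.13 in young and at 1.58, 1.6 and 1.39 in mature auxin arrays, 2.82-fold higher in mature (1.5 ± 0.12, limma adjusted p = 4.7e-07), whereas it was not called without auxin (−0.13); the difference was called (1.62 ± 0.17). EXLA1 (0.98 ± 0.17) and EXPB3 (0.86 ± 0.14) were higher.

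The secondary wall list had 5 lower and none higher of 9 (55.6%, median −0.47). Its members include ATXYN3 (AT4G08160, −1.33 ± 0.15), a xylanase by its name, IRX15, needed for xylan of xylem walls (−1.16 ± 0.15), and GUT2, which builds the xylan backbone (−1.1 ± 0.11, limma adjusted p = 3.8e-06). For ATXYN3 the untreated ages did not differ by the test (−0.02), and the difference between the comparisons was called. Of 8 pectin genes 2 were lower, the pectin methylesterases PMEPCRF (−1.62 ± 0.11) and ATPMEPCRB (−1.57 ± 0.13), and both were higher in mature hypocotyls without auxin (0.98 and 0.63), the second not called without the low-bioC arrays (0.61). Of 23 TBL genes, a family that acetylates wall polymers, 10 were lower (43.5%) and 1 higher; the falls were led by TBL45 (−2.11 ± 0.16), TBL30 (−1.35 ± 0.15) and TBL41 (−1.35 ± 0.17). Among cellulose synthase-like and cellulase genes of the primary wall, 4 of 10 were lower, with CSLC5, a xyloglucan backbone synthase, at −1.31 ± 0.12, and 1 was higher, CSLD2 (0.50 ± 0.09). The cellulases GH9B8 (1.83 ± 0.33) and GH9B13 (1.54 ± 0.17) were higher and GH9B7 (−1.41 ± 0.08) and GH9A3 (−1.24 ± 0.15) lower.

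Microtubule and cortical array genes were lower in mature auxin arrays. The list held tubulins, actins, IQD proteins, which hold calmodulin on microtubules, TRM proteins, which recruit the TON1 complex that orders them, and a few others such as SPR1 and its relatives. Of its 43 measured genes 23 were lower (53.5%) and 3 higher (6.98%), with a median of −0.32. TUB1, a beta-tubulin, lay at 1.81, 1.55 and 1.25 in young and at −1.31, −1.79 and −1.28 in mature auxin arrays, 7.98-fold lower (−3.0 ± 0.20, limma adjusted p = 8.1e-08). TRM28 stood at 2.65, 2.83 and 2.62 against 0.36, 0.35 and 0.52, 4.90-fold lower in mature (−2.29 ± 0.11), with 0.17 and no call without auxin. IQD22 was lower by 1.61 ± 0.13 on the log2 scale. TRM19 (0.71 ± 0.12), TRM15 (0.46 ± 0.09) and IQD26 (0.46 ± 0.12) were higher. Without auxin 21 of the 43 were lower and 6 higher, so that this list moved mostly down with age under both conditions: 15 genes were lower in both comparisons. The count of 23 lay between 20 and 23 in every alternative at the same threshold.

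Lignin, suberin and surface genes gave smaller groups. CCR2, a cinnamoyl-CoA reductase, was higher in mature auxin arrays (1.17 ± 0.14, limma adjusted p = 1.6e-05), as was HCT, a hydroxycinnamoyl transferase (0.46 ± 0.09), out of 4 lignin genes. Of the 6 class III peroxidases that the list found by gene name, 2 were higher (33.3%) and 2 lower (33.3%). Among them PRX52 was higher (0.77 ± 0.12) and PRX72 (AT5G66390), known for a role in lignin, lower (−2.28 ± 0.24). FACT, which makes the caffeate esters of suberin wax, lay at −1.80, −1.81 and −2.09 in young and at 1.85, 2.15 and 1.80 in mature auxin arrays. It was 14.2-fold higher (3.83 ± 0.11, limma adjusted p = 5.7e-11), less than the 24.6-fold without auxin, and that difference was called (−0.79 ± 0.16). The wax ester synthase WSD1 (−1.87 ± 0.28) and CER26 (AT4G13840), which acts in wax elongation (−1.18 ± 0.15), were lower. WSD1 read 0.85, 2.25 and 2.37 in young arrays and −0.15 to 0.00 in mature ones, so that young array 1 stood apart.

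**Figure D3:**
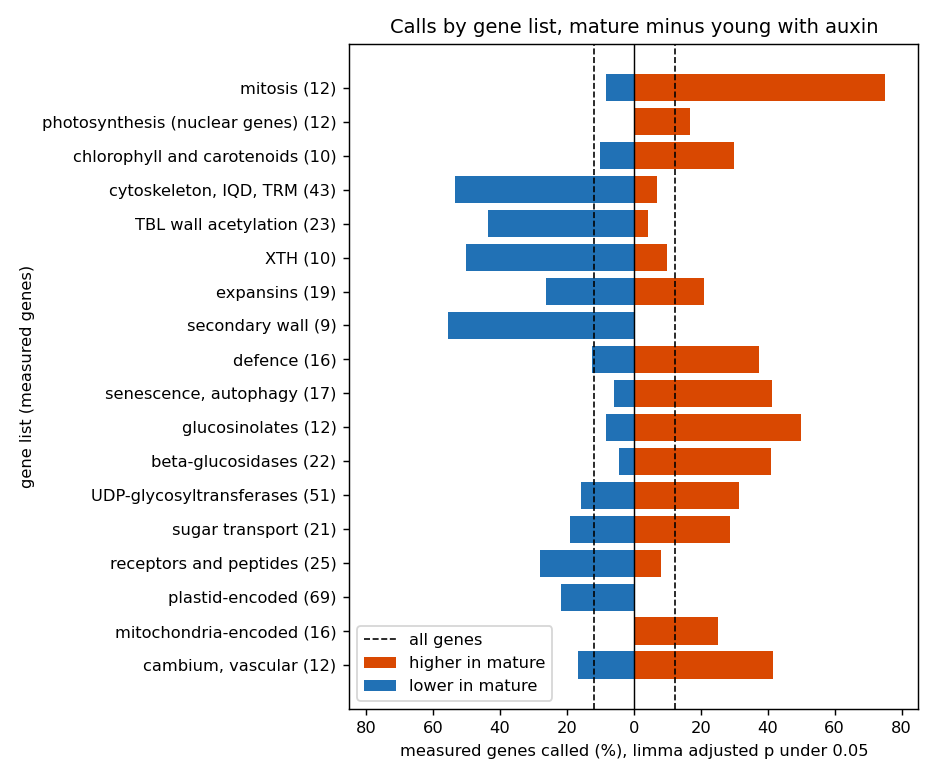
Share of the measured genes of 18 lists called higher (right) or lower (left) in mature than in young hypocotyls with auxin (x axis, percent; number of measured genes beside each name). Dashed lines give the shares over all 13356 genes, 12.4% and 11.8%. Mitosis genes reach 75% on the right, and cytoskeleton, secondary wall and XTH genes reach 50% to 55.6% on the left.

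Among genes with a name, a defence gene had the largest rise. OSM34, an osmotin-like protein, lay at −3.30, −2.78 and −2.93 in young and at 1.87, 2.07 and 2.68 in mature auxin arrays, 36.95-fold higher (5.21 ± 0.23, limma adjusted p = 2.0e-09). The plant defensin PDF2.1 stood at −2.49, −2.29 and −1.86 against 1.87, 2.13 and 1.86, 17.92-fold higher (4.16 ± 0.17), and PDF1.4 was higher by 1.99 ± 0.10. For OSM34 and PDF2.1 the difference between the comparisons was not called (−0.23 and −0.30), whereas PDF1.4 differed less with than without auxin (1.99 against 4.43). Of 16 defence genes 6 were higher (37.5%) and 2 lower (1 with the replicate block on 6 arrays). The defensin LCR68, whose locus AT2G02130 is numbered next to that of PDF2.1 (AT2G02120), went the other way (−1.19 ± 0.17, limma adjusted p = 0.00013). Of 4 jasmonate genes 2 were higher, OPCL1, which activates jasmonate precursors (0.71 ± 0.11), and the transcription factor MYC3 (0.47 ± 0.12).

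Senescence and autophagy genes were higher in 7 of 17 (41.2%) and lower in 1. SAG29 (SWEET15), a sugar carrier of ageing leaves, lay at −0.20, −0.09 and 0.46 in young and at 3.11, 3.05 and 2.72 in mature auxin arrays, 7.5-fold higher (2.91 ± 0.32, limma adjusted p = 8.5e-06). ATG8E, a protein that coats autophagosomes, was 2.02-fold higher (1.02 ± 0.11) and YLS5 1.99-fold (1.00 ± 0.13). NOL, a chlorophyll b reductase, was lower (−0.44 ± 0.08). Without auxin 13 of the 17 were higher, against 20.0% of all genes. The difference between the comparisons was called below 0 for 9, against 15.2% of all genes, and for 6 without the low-bioC arrays. The vacuolar processing enzymes ALPHA-VPE (1.16 ± 0.11) and GAMMA-VPE (0.87 ± 0.11), proteases of the lytic vacuole, were higher, 2 of 4 measured.

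Genes of specialised metabolism were partly higher. Of 12 glucosinolate genes 6 were higher (50%) and 1 lower. Some of the 12, such as BGLU27 and BGLU28, were also counted among the beta-glucosidases. BCAT4, which starts methionine chain elongation, lay at −2.23, −2.46 and −1.76 in young and at 0.39, 0.66 and 1.14 in mature auxin arrays (2.88 ± 0.38, 7.36-fold, limma adjusted p = 4.7e-05). AOP1, of the enzyme family that modifies glucosinolate side chains, was lower (−1.77 ± 0.10). Of 22 beta-glucosidases 9 were higher (40.9%) and 1 lower, led by BGLU15 (2.17 ± 0.12), BGLU46, which acts on monolignol glucosides (1.90 ± 0.11), and BGLU16 (1.65 ± 0.08). BGLU40 was lower with auxin (−1.01 ± 0.10) and higher without it (1.19). Of 51 UDP-glycosyltransferases 16 were higher (31.4%) and 8 lower (15.7%), with UGT85A2 (1.63 ± 0.15), UGT72E1, which glucosylates monolignols (1.62 ± 0.12), and UGT73C7 (1.44 ± 0.12) at the top and UGT76E2 (−1.45 ± 0.14), UGT84A4 (−1.31 ± 0.15) and UGT71C1 (−1.20 ± 0.19) at the bottom.

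Among the CYP71B cytochromes P450, CYP71B6 stood 1.93 ± 0.09 higher and CYP71B23 1.35 ± 0.16 higher. CYP71B34 lay at −0.28, 0.01 and −0.28 in young and at −3.40, −2.95 and −3.06 in mature auxin arrays, 7.76-fold lower (−2.96 ± 0.12, limma adjusted p = 8.9e-10), but only −0.38 without auxin. Of 24 P450 genes 4 were higher (16.7%) and 3 lower (12.5%), near the 12.4% and 11.8% of all genes. Without young array 2, young array 3 or mature array 3, 1 was lower. Of 13 glutathione transferases 2 were higher, led by GSTU25 (1.24 ± 0.14), and 2 lower, led by GSTU16 (−1.09 ± 0.09), which was higher without auxin (0.37), though not called without the low-bioC arrays (0.50). Of the 13, 15.4% were thus called in each direction, also near the shares of all genes. With the replicate block on the 6 arrays 4 were lower.

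Genes of nutrient use and carbon starvation were mixed. Of 10 genes listed for starvation and branched-chain amino acid breakdown 5 were higher and 1 lower. The 5 include BCAT4, the gene of methionine chain elongation that was also counted among the glucosinolate genes. MCCA, a subunit of methylcrotonyl-CoA carboxylase in leucine breakdown, was higher with auxin (1.08 ± 0.17, limma adjusted p = 0.00024) and lower without it (−1.27). LKR (AT4G33150), which begins lysine breakdown, was higher (0.60 ± 0.09), and MGL, a methionine gamma-lyase, was lower (−1.97 ± 0.21). Of 21 sugar carriers 6 were higher and 4 lower. SWEET16, a sugar carrier of the vacuole membrane, lay at −2.30, −1.99 and −2.21 in young and at −0.59, −0.70 and −0.72 in mature auxin arrays, 2.82-fold higher (1.5 ± 0.09, limma adjusted p = 3.7e-08). SWEET9, the nectary sugar carrier, stood at 2.43, 1.95 and 2.36 against 0.07, 0.05 and 0.11, 4.5-fold lower (−2.17 ± 0.12). Neither differed by the test without auxin, and both differences between the comparisons were called (1.71 and −1.89). GTR1, which carries glucosinolates, was higher (0.65 ± 0.10). It belongs to the nutrient transport list, in which 3 of 17 genes were higher (17.6%) and 4 lower (23.5%).

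Dehydration and cold genes balanced, with 4 higher and 4 lower of 14. The dehydrin LTI30 (1.40 ± 0.22), LEA27 (AT2G46140, 1.1 ± 0.12) and HVA22C (1.05 ± 0.11) were higher, and COR47 (−1.43 ± 0.13), LEA4-5 (−1.23 ± 0.10) and COR27 (−0.94 ± 0.17) lower. Among hormone receptors, GID1B, which binds gibberellin, was 1.93-fold higher (0.95 ± 0.10, limma adjusted p = 5.1e-06), less than the 6.325-fold without auxin.

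Signals and regulators of the vascular cambium were partly higher. CLE41, the peptide that keeps cambium cells dividing, lay at −0.52, −0.63 and −0.80 in young and at 0.20, 0.21 and 0.25 in mature auxin arrays (0.87 ± 0.11, 1.83-fold, limma adjusted p = 3.0e-05). PHV, an HD-ZIP III factor of xylem and organ polarity, was higher by 0.87 ± 0.09, and CLE26 by 0.53 ± 0.12. CLE27 (−0.63 ± 0.16) and PXL2 (AT4G28650), a receptor kinase related to the CLE41 receptor (−0.76 ± 0.09), were lower. In this list of 12, 5 were higher (41.7%) and 2 lower (16.7%) with auxin, against 12.4% and 11.8% of all genes. Without auxin 7 were higher and 3 lower, against 20.0% and 21.0% of all genes. The 5 and the 2 called with auxin had the same calls without it. The median was 0.07 with auxin and 0.39 without. The count higher with auxin was 3 with the 6 auxin arrays alone and without young array 1, young array 2 or mature array 3. Of 25 receptors and peptides 7 were lower, among them RALFL27 (−2.28 ± 0.20), GSO1, a receptor of the endodermal barrier (−0.71 ± 0.11), and THE1, which senses wall integrity (−0.69 ± 0.16), and 2 were higher, CLE41 and CLE26.

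Outside the lists, the largest differences fell on genes that the annotation gives by locus only. The 10 largest rises with no overlap between groups were OSM34, AT1G14120 (4.37 ± 0.19), AT4G16260 (4.33 ± 0.29), AT1G10585 (4.26 ± 0.25), AT3G58550 (4.25 ± 0.11), PDF2.1, AT1G26380 (3.95 ± 0.16), AT2G15220 (3.94 ± 0.15), AT5G19110 (3.87 ± 0.15) and FACT. All 10 were also higher in mature hypocotyls without auxin, by 2.22 to 5.55. The 10 largest falls were AT1G29660 (−5.07 ± 0.17), AT2G18010 (−4.90 ± 0.20), AT2G10940 (−4.89 ± 0.34), AT2G14900 (−4.59 ± 0.16), AT4G16980 (−4.57 ± 0.29), AT4G18970 (−4.41 ± 0.24), AT3G12710 (−4.22 ± 0.22), XTH19, AT5G57785 (−4.14 ± 0.20) and AT2G45180 (−4.06 ± 0.19). Of these, AT2G18010, AT2G14900, XTH19, AT5G57785 and AT2G45180 fell further with auxin than without it, by a called difference of −2.69 to −4.47.

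AT2G18010 shows that pattern: it lay at 4.48, 4.5 and 4.08 in young auxin arrays and at −0.53, −0.52 and −0.57 in mature ones. AT5G57785 differed with auxin alone, since its untreated difference of 0.33 was not called. The transcription factor BZIP61 was 9.11-fold lower with auxin (−3.19 ± 0.21) and 44.3-fold lower without it.

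**Figure D4:**
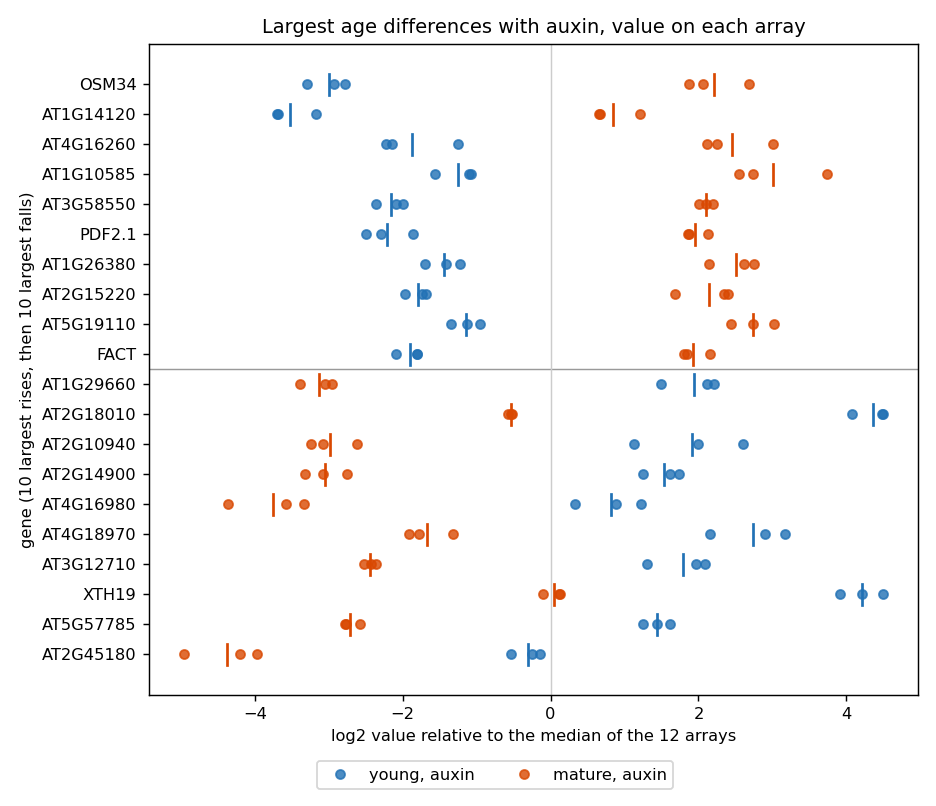
Value on each of the 6 auxin arrays (x axis, log2 relative to the gene's median over the 12 arrays) for the 10 largest rises (above the line) and the 10 largest falls (below it); vertical ticks are group means. The genes were chosen for their size and for groups that do not overlap, and the means lie 3.83 to 5.21 apart among the rises and −4.06 to −5.07 apart among the falls.

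The age difference with auxin was compared with that without it over all probe sets. The 2 comparisons share no arrays. Without auxin 10386 probe sets (45.7%) were called, 5171 higher and 5215 lower, and the median absolute difference was 0.23 against 0.15 with auxin. The difference between the comparisons was called for 7962 probe sets (35.0%). Both comparisons called 3287 probe sets with the same sign, which is 53% of the calls with auxin and 31.6% of those without. Among these the difference was called for 1465, smaller with auxin in 1077 and larger in 388. Pearson's r of the 2 differences across the 22746 probe sets was 0.519 and Spearman's rho 0.297, as a description over probe sets that are not independent.

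Opposite signs were called for 1067 probe sets, 550 of them higher and 517 lower in mature hypocotyls with auxin. AT1G71695 lay at −1.15, −1.23 and −1.24 in young and at 0.33, 0.30 and 0.65 in mature auxin arrays (1.63 ± 0.10), and at 2.67, 2.81 and 2.67 in young and −0.55, −0.44 and −0.30 in mature untreated arrays (−3.15). Treated young hypocotyls thus held its lowest values and untreated young ones its highest. SWEET2, a sugar carrier of the vacuole membrane, showed the same order (1.44 ± 0.23 with and −2.05 without auxin), with untreated young arrays at 2.63, 2.75 and 1.81. AT3G15450 was higher by 2.09 ± 0.14 with auxin and lower by 0.43 without, and AT3G15630 higher by 1.51 ± 0.09 and lower by 0.65 (log2).

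In the other direction, AT1G80130 lay at 3.80, 3.98 and 3.49 in young and at −0.28, 0.05 and 0.03 in mature auxin arrays, 14.2-fold lower, against a rise of 0.48 without auxin. RALFL27, of the RALF peptide family that alters wall growth, stood at 1.99, 2.40 and 2.42 against 0.02, 0.16 and −0.20. AT4G16670 (−2.46 ± 0.18 with and 1.40 without auxin) and AT2G37870 (−1.93 ± 0.15 and 0.86) completed the named ones. In AT1G80130 and RALFL27 the mature arrays were alike with and without auxin, between −0.48 and 0.48, and the treated young arrays stood apart. When the 4 low-bioC arrays were left out, 573 probe sets had opposite calls, 513 of them among the 1067; the untreated age calls of RALFL27, AT3G15450 and AT1G80130 were then lost, while all 8 named genes kept a called difference between the comparisons.

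**Figure D5:**
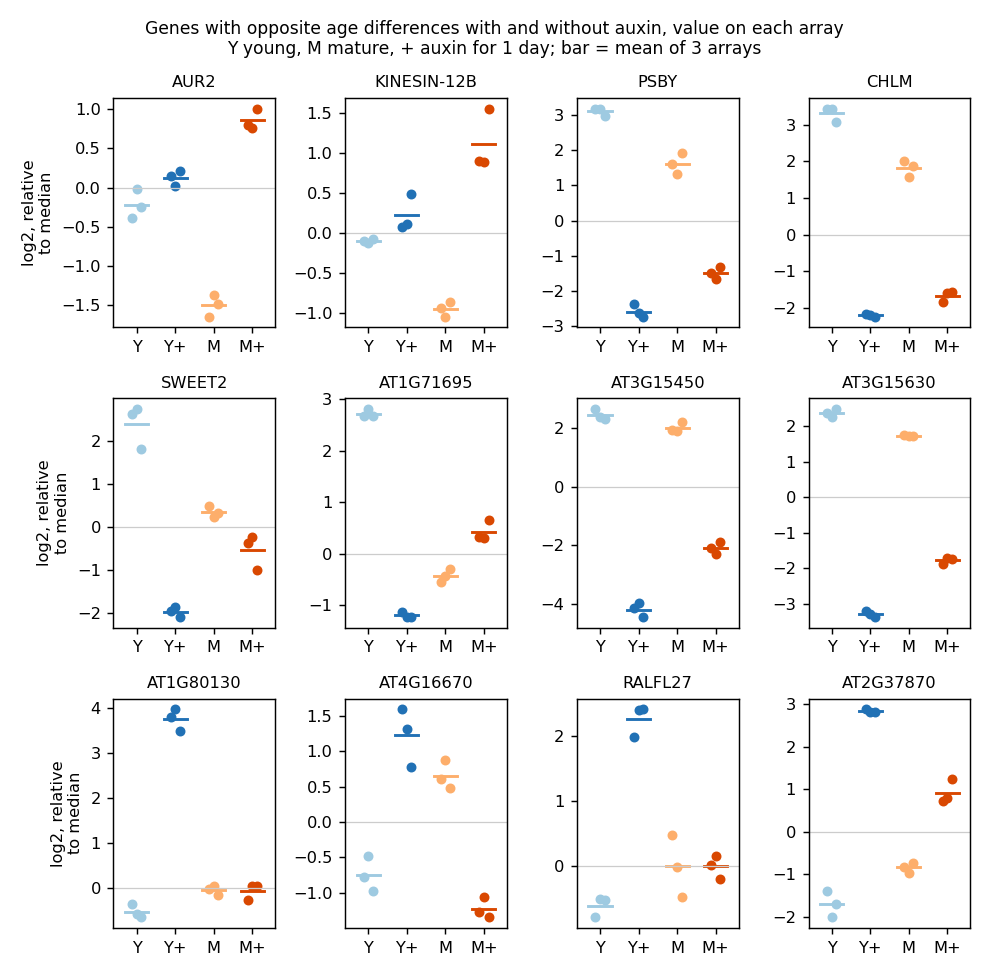
Value on each of the 12 arrays (y axis, log2 relative to the gene's median; x axis, Y young, M mature, + auxin; bars are group means) for 12 genes called in opposite directions with and without auxin. In AUR2 and KINESIN-12B the treated mature arrays are highest and the untreated mature arrays lowest; in AT1G80130 and RALFL27 the treated young arrays, at 3.49 to 3.98 and 1.99 to 2.42, stand above the other 9.

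With auxin alone, 1852 probe sets were called, and the difference between the comparisons was called for 1137 of these. AT4G27450 (2.03 ± 0.28), AT1G76470 (2.00 ± 0.30), AT1G71690 (1.92 ± 0.13) and GH9B8 were the largest rises of this class, and AT5G57785, AT5G19890 (−3.75 ± 0.17), AT5G04120 (−3.41 ± 0.15) and AT1G14930 (−3.25 ± 0.12) the largest falls. For AT4G27450 and AT1G76470 the difference between the comparisons was not called without the low-bioC arrays. AT5G19890 lay at 4.88, 4.30 and 4.26 in young and at 0.47, 0.69 and 1.02 in mature auxin arrays. GH9B8 was near 0 on all young auxin arrays (0.00, 0.02 and 0.00) and at 1.59, 1.84 and 2.08 on the mature ones.

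Without auxin alone, 6032 were called, and the difference was called for 4025 of these. ARPN, a small blue copper protein, was 26.62-fold higher in mature hypocotyls without auxin (4.73) and differed by 0.48 ± 0.23 with it (limma adjusted p = 0.143, 95% interval −0.003 to 0.97). AT3G46490 was lower by 5.24 on the log2 scale without auxin and differed by −0.08 ± 0.12 with it (95% interval −0.34 to 0.17). AT2G23540, AT4G38080 and AT2G22510 were higher by 3.98 to 4.46 without auxin and differed by −0.23 to 0.34 with it. AT5G45670, AT5G48490 and AT4G37220 were lower by 4.0 to 4.17 without auxin and differed by −0.26 to 0.12 with it. AT5G45670 was called lower with auxin when mature array 3 was left out (−0.72, limma adjusted p = 0.0291).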

How the data were processed

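Total RNA of whole hypocotyls was hybridised to Affymetrix arrays, 12 in 4 groups of 3. The authors deposited log2 values made with RMA (background correction, normalization and summary per probe set), per the submitters' processing notes; the base of the logarithm is not given in the sources used here and was read as RMA's usual one. In the deposited table each probe set has a median of 0 over the 12 arrays, so levels are unknown and dim probe sets could not be filtered. The number of arrays limits the precision. The p-values weigh a difference of group means against the spread between arrays, pooled over the 4 groups and moderated across probe sets by limma.

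The 64 controls were left out. The array annotation gives 1 gene for 13513 of the 22746 probe sets, several for 503 and none here for 8730; only the first were named, by their annotated or RefSeq symbol or locus. Limma (version 3.58.1, R version 4.3.3) fitted 4 group means to 12 arrays, with 8 residual degrees of freedom. Contrasts were age with auxin, age without, and their difference, two-sided, with Benjamini-Hochberg adjustment over 22746 probe sets. The fit was tested on simulated data. A list value is the mean over a gene's probe sets. A gene that belongs to several lists was counted in each.

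Members and gene lists were chosen with earlier results of these data known, and 17 of the 73 lists (67 with a measured gene) after the annotation's names had been seen. Named genes are the 10 largest rises and falls without overlap, up to 3 rises and 3 falls per list, all genes of 4 auxin and callus lists, and the 4 largest per direction in each class of agreement between the comparisons. Of 238 such probe sets, 2 are of a design that may match several transcripts.

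Labels number the replicates 1 to 3 in each group. Deviations of same-numbered auxin arrays correlated at 0.250, 0.158 and 0.122, each above the minimum of 0.1. The replicate number was therefore also fitted as a block, as an alternative. For the untreated arrays the values were 0.221, 0.074 and 0.031, against 0.094 for young array 3 with mature array 2. The values reported come from the fit without a block, which ignores any pairing. PUCHI and WES1 were not called in that fit but were called with the block. Alternatives were the 6 arrays alone, the block, other scalings, robust empirical Bayes, fewer probe sets, a stricter threshold and leaving out arrays.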

Additional observations from a re-analysis of the deposited data

Results flagged for a closer look

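With 3 arrays per group, no test for a single array standing apart was made. The difference between the age comparisons with and without auxin was called by limma for 7962 probe sets, and 1067 probe sets were called in both with opposite signs. Among the named probe sets 157 had a called difference, 64 above 0 and 93 below 0, between −4.47 and 5.16 on the log2 scale. Over all probe sets 35.0% were called, but some named genes were chosen for how the comparisons differ, so the 2 shares are not comparable. It was 4.78 for AT1G71695, 3.49 for SWEET2, 2.52 for AT3G15450 and 2.16 for AT3G15630, which were higher in mature hypocotyls with auxin and lower without it. It was −4.31 for AT1G80130, −3.85 for AT4G16670, −2.89 for RALFL27 and −2.80 for AT2G37870, which were lower with auxin and higher without it. Each was tested as an interaction of age and auxin over the 12 arrays.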

How the results depend on the processing

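All 6206 calls kept the sign of their difference under every alternative that tested them. The sign could turn only under other scalings or without an auxin array, since the other alternatives leave the auxin group means unchanged. Robust empirical Bayes left the count of calls at 6206. It was 6068 with the 6 auxin arrays alone, 6119 with array medians set equal, 6141 with reference genes set equal and 6845 after quantile normalization, and higher calls made up 50.2% to 55.2% of the called. With the replicate block 6462 probe sets were called over 12 arrays and 6478 over 6; each ended the call of 4 named genes and added PUCHI and WES1. Leaving out 1 array gave 4975 to 6351 calls, the fewest without young array 2. At an adjusted p under 0.01 there were 4364. Testing only probe sets with 1 gene, fewer by construction, gave 3226 calls with auxin (1649 higher and 1577 lower), 5484 without and 4064 for the difference. Without the 4 low-bioC arrays, again fewer by construction, 5574 probe sets were called without auxin and 4336 for the difference. Of 216 named results that were called, 183 kept call and direction in all alternatives at the 0.05 threshold, and 33 lost the call in at least 1. Signs turned for 8 named results, none of them called, and the cause was not tested. GH3.1 was 0.51 after quantile normalization. Over fits without 1 array, GH3.3 ran from −0.0782 to 0.131, UGT84B1 from −0.0616 to 0.077, BBM from −0.0207 to 0.0831, IAA34 from −0.013 to 0.088, AT5G45670 from −0.72 to 0.13, AT4G38080 from −0.37 to 0.11 and AT2G22510 from −0.551 to 0.0813. Without absolute levels, dim probe sets could not be told from bright ones.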
